A study of Mus musculus with 7 samples.

Results

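The genes of oxidative phosphorylation were followed in haematopoietic stem cells (HSCs), the marrow cells from which all blood lineages arise. The members were taken from the annotation by names that mark subunits of respiratory complexes I to IV and of ATP synthase (complex V). The names of Ndufa4 and Atp5s differ from their known roles, as given below. In all, the members made up 99 of the 28786 genes in the count table. Of these, 86 lie in the nuclear genome (38 of complex I, 4 of complex II, 9 of complex III, 18 of complex IV and 17 of complex V). The other 13 lie in mitochondrial DNA (7 of complex I, 1 of complex III, 3 of complex IV and 2 of complex V). All 13 mitochondrially encoded members and 81 of the 86 nuclear members had enough counts to be tested.

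The libraries of the tumour group were labelled MC38, after a murine colon carcinoma line, and those of the other group control, and both groups were C57BL/6J mice. HSCs came from marrow of the femora and tibiae, with mice at 6 to 8 weeks of age and 1500 sorted cells in each library, and polyadenylated RNA was sequenced after 12 PCR cycles of amplification. The 4 MC38 libraries held between 13368238 and 17657037 counts and the 2 control libraries used here held 12131546 and 12306066. The title of the series places interferon gamma and Meis1 in a myeloid bias of HSCs under a tumour. The labels give no sex or allele, no sort gate and no time after tumour inoculation. They do not tie libraries to animals either, and a p-value here weighs only the spread from library to library, which could be technical. Control column 3 was left out because its values track those of the other 2 controls. For the 92 members whose sum over those 2 columns reached 200, column 3 held between 0.347 and 0.364 of the sum, and the median share was 0.353 over the 9692 such genes of the table.

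All 12 HSC marker genes were detected in every library, with a summed level of 1286 to 1460 CPM (TMM-scaled counts, relative to a library of fixed size) in MC38 and of 1296 and 1488 CPM in control libraries. Transcripts known as markers of other cell types were counted too. The 8 neutrophil markers summed to 60911, 58034, 53486 and 56603 CPM in MC38 libraries 1 to 4, against 27947 and 27696 CPM in control libraries 1 and 2. Of the 8, 7 passed the test as higher, where 1.04% of all tested genes did. The 6 macrophage markers summed to between 59.1 and 69.1 CPM in MC38 and to 26.9 and 27.4 CPM in control libraries, with C1qc at 0 in control library 1. Of this sum Cd68 made up 28.5 to 39.1 CPM in MC38 and 22.8 and 18.5 CPM in control. C1qa, with 1 and 3 counts in the controls, passed the test as higher. In all, 5 of the 6 had all MC38 libraries above both controls (83.3%, against 14.0% of all genes), and 1, Mertk, had an estimate below 0. B cell markers summed to 152 to 195 CPM in MC38 and 130 to 132 CPM in control, T and NK cell markers to 400 to 442 CPM in MC38 and 417 to 479 CPM in control (of which Nkg7 made up 326 to 388 CPM in MC38 and 453 and 388 CPM in control), and erythroid markers to 163 to 185 CPM in MC38 and 182 to 265 CPM in control. Of the 8 T and NK cell markers none passed the test and 7 had estimates above 0, with a median log2 fold change of 0.96. For 3 of them (Klrb1c, Cd3g and Cd3d) all MC38 libraries lay above both controls. In such bulk libraries fewer cells of a type and less RNA per cell cannot be told apart. Nor can transcripts from other cells be told apart from the same transcripts made in HSCs. The part of these transcripts in the results below was not tested.

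The respiratory chain passes electrons from NADH (through complex I) and succinate (through complex II) to ubiquinone, complex III and cytochrome c, and complex IV hands them to oxygen. Proton pumping by complexes I, III and IV drives ATP synthase. The catalytic centre of complex IV, cytochrome b of complex III, the membrane core of complex I and a pair of membrane subunits of ATP synthase are made inside the mitochondrion from mitochondrial DNA, while complex II and all other subunits come from nuclear genes, so the assembled complexes draw on transcripts of both genomes. Quiescent HSCs are known for low reliance on oxidative phosphorylation and for a switch towards it when they divide and differentiate.

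The mitochondrial genome is transcribed as long polycistronic RNAs that are cut into mRNAs, and some coding regions overlap. The pairs mt-Atp8 with mt-Atp6 and mt-Nd4l with mt-Nd4 are shown because the counts of their members are read side by side below. The sequences are those of the GENCODE release 21 transcripts on GRCm38. The coding region of mt-Atp8 (chrM:7766-7969, plus strand, 204 bases) shares its last 43 bases, in capitals, with mt-Atp6. The coding region of mt-Nd4l (chrM:9877-10173, plus strand, 297 bases) shares its last 7 bases, in capitals, with mt-Nd4.
mt-Atp8: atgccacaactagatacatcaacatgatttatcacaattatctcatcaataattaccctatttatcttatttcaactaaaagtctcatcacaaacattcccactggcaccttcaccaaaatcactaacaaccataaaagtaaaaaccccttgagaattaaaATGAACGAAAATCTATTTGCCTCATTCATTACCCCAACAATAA
mt-Nd4l: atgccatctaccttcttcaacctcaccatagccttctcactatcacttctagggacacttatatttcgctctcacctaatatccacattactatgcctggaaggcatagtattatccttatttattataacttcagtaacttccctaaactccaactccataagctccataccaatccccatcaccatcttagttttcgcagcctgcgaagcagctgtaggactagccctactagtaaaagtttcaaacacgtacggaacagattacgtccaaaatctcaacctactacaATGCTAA

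Of the nuclear members, 67 of 86 had an entry in the RefSeq promoter table (GRCm38.p6), which spans 250 bases before to 50 after each start. The upstream stretch is shown for Ndufb5, the member that passed the test, and for Sdhd, the member of smallest p in complex II. Bases that GENCODE places inside the gene were left off, which leaves chr3:32736813-32736989 (plus strand, 177 bases) for Ndufb5 and chr9:50603850-50604099 (minus strand, 250 bases) for Sdhd. Capitals in the Sdhd stretch mark a match to the NRF-1 motif (GCGCA, then any base, then GCGC), which begins 79 bases before the start, and a match to the ETS motif CCGGAAG on the other strand, 46 bases before the start. No match to these motifs or to the YY1 motif AAGATGGCG lay in the Ndufb5 stretch.
Ndufb5: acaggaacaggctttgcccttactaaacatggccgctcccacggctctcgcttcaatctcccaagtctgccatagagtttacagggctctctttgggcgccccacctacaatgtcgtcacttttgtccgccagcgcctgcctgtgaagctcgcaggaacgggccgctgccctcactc
Sdhd: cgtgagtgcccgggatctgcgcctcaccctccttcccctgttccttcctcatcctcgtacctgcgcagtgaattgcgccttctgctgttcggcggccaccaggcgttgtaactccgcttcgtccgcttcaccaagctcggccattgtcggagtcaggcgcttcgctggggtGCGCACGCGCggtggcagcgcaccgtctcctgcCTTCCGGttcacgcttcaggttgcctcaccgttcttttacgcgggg

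NRF-1, the ETS factor GABP (also called NRF-2) and YY1 are known regulators of nuclear respiratory genes. Searched on both strands of the whole 300-base windows, the NRF-1 motif was present for 17 of the 67 members (25.4%), against 5.19% of all 27025 genes in the table. The ETS motif was present for 16 members (23.9%), against 9.93% of all genes, and the YY1 motif for 7 members (10.4%), against 1.64% of all genes. These are matches of letters, not measured sites, and the genes of the table were not matched to the members for expression or base composition.

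The transcripts of the 13 mitochondrially encoded genes took a larger share of all counts in each MC38 library than in either control library. The share was 2.01%, 2.31%, 3.14% and 2.88% in MC38 libraries 1 to 4, against 1.71% and 1.75% in control libraries 1 and 2. The MC38 libraries also lay further apart from each other than the controls did, with means of 2.59 ± 0.517% in MC38 and 1.73 ± 0.0273% in control (SD, n = 4 and 2), a ratio of 1.5. The nuclear members took 1.95%, 1.90%, 1.70% and 1.76% of counts in MC38 libraries, against 2.15% and 1.97% in control libraries. Here every MC38 library lay below both controls, with means of 1.83 ± 0.118% and 2.06 ± 0.129% (MC38 and control, SD, n = 4 and 2), a ratio of 0.886. Counts of mitochondrially encoded members per count of nuclear members came to 1.03, 1.22, 1.85 and 1.63 in MC38 libraries and to 0.794 and 0.888 in control libraries.

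**Figure D1:**
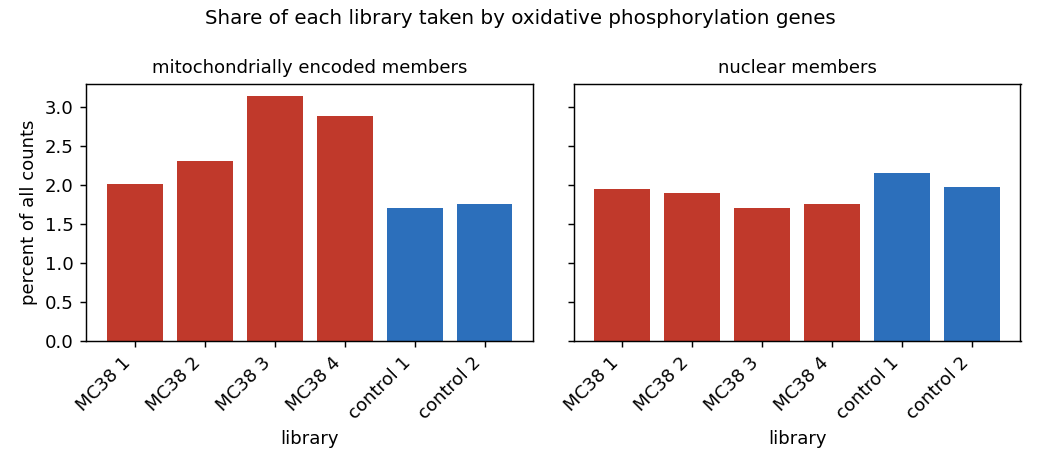
Bars give the share of all counts, in percent, taken in each library by the mitochondrially encoded genes (left panel) and by the nuclear genes of oxidative phosphorylation (right panel), MC38 libraries left of control libraries. MC38 libraries lay above both controls for the mitochondrial share (2.01% to 3.14%, against 1.71% and 1.75%) and below both for the nuclear share (1.70% to 1.95%, against 1.97% and 2.15%).

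Neither set was carried by single genes that passed the test. Across all 14226 tested genes, 229 passed an adjusted p of 0.05 in edgeR's quasi-likelihood test, which is 1.61% of genes (1.04% higher and 0.569% lower in MC38). Among the members 1 nuclear gene, Ndufb5, passed, as lower, and none of the 13 mitochondrially encoded members did. At an unadjusted p under 0.05 the count was 10 of 13 mitochondrially encoded members, all higher, and 27 of 81 tested nuclear members, 2 higher and 25 lower, where 9.26% of all genes were higher and 8.22% lower at that level. All 4 MC38 libraries lay above both controls for 10 of the 13 mitochondrially encoded members (76.9%), against 14.0% of all genes. All 4 lay below both controls for 34 of the 81 nuclear members (42.0%), against 15.0% of all genes, and above both for 3 (3.7%). The median log2 fold change was 0.68 over the mitochondrially encoded members (range 0.09 to 1.00), -0.21 over the tested nuclear members (range -0.68 to 1.32) and 0.01 over all tested genes. The nuclear median was -0.12 without control library 1 and -0.26 without control library 2. The estimate was below 0 for 66 of the 81 nuclear members and for 49.1% of all genes.

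The number of calls moved with the method more than the direction did. DESeq2 called 8 mitochondrially encoded members, all higher, and 8 nuclear members, 7 of them lower, where it called 4.78% of all genes. That share, like the next one without a filter, is over 21477 genes with any count. It takes in low-count genes that the main fit left out, so it is not a like-for-like background for the members. Without the filter on low counts edgeR called 3 mitochondrially encoded and 4 nuclear members, at 2.35% of all genes. With all 7 columns it called 7 and 13, at 10.6%. That fit counts control column 3 as a replicate although its values track the other 2 controls, so its calls are not added support. Leaving out MC38 library 1, which had the lowest mitochondrial share of its group, gave 8 mitochondrially encoded calls in edgeR, all higher, at 3.17% of all genes. Leaving out MC38 library 3, which had the highest share, gave 5, all higher, at 2.11% of all genes. These 5 genes (mt-Atp6, mt-Atp8, mt-Cytb, mt-Nd4 and mt-Nd5) were also among the 8 of DESeq2. No mitochondrially encoded member was called without any 1 of the other 4 libraries.

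**Figure D2:**
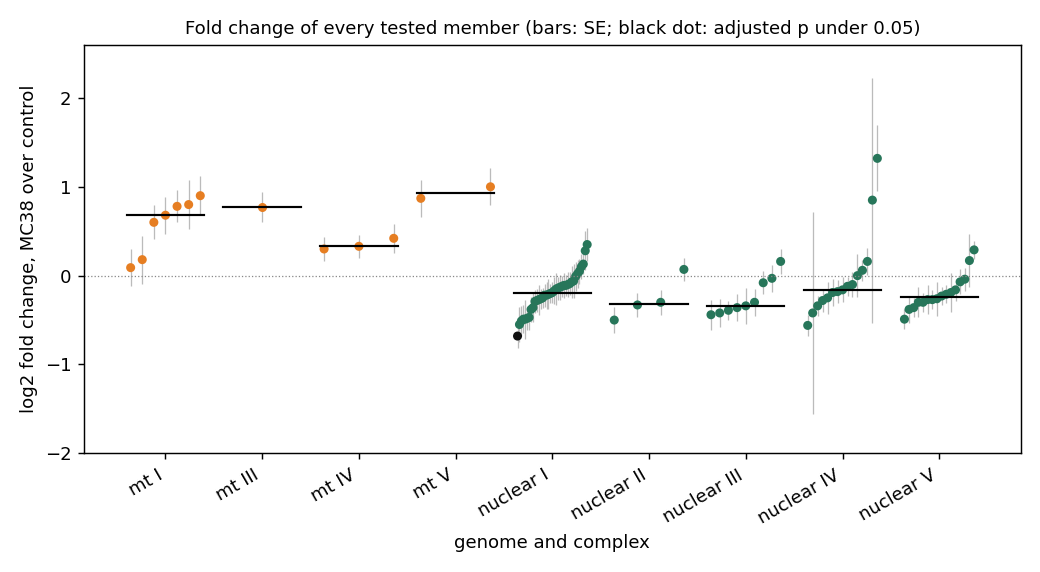
Log2 fold change, MC38 over control, of each of the 94 tested genes of oxidative phosphorylation, grouped by genome and complex and sorted within each group, with thin bars of 1 standard error, a thick line at each group's median and the gene past the test, Ndufb5, in black. The mitochondrially encoded genes lie at 0.09 to 1.00 and the nuclear genes at -0.68 to 1.32, with 66 of 81 nuclear genes below the dotted line at 0.

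The mitochondrially encoded genes differed among themselves, and mt-Atp8, mt-Nd4 and mt-Atp6 had the highest estimates. For mt-Atp8, a small subunit of the membrane part of ATP synthase, the level was 554, 659, 966 and 874 CPM in MC38 libraries 1 to 4, against 387 and 378 CPM in control libraries 1 and 2. The fold was 2.00 (log2 fold change 1.00, SE 0.21, edgeR adjusted p = 0.0524), with no overlap between groups. For mt-Atp6, which codes for the a subunit that forms the proton path, the level was 3687, 4448, 6631 and 5885 CPM in MC38, against 2797 and 2866 CPM in control. MC38 library 3 was highest and MC38 library 1 lowest of the group, and the log2 fold change was 0.87 (SE 0.21, edgeR adjusted p = 0.0796). The levels of mt-Cytb, the cytochrome b of complex III, were 1746, 1989, 2656 and 2374 CPM in MC38, against 1296 and 1281 CPM in control. Its log2 fold change was 0.77 (SE 0.17, edgeR adjusted p = 0.055).

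Complex I is encoded in mitochondrial DNA by 7 genes for its membrane arm. Of these, 5 had all MC38 libraries above both controls (71.4%, against 14.0% of all genes). For mt-Nd4 the levels were 828, 999, 1465 and 1373 CPM in MC38, against 571 and 677 CPM in control (log2 fold change 0.90, SE 0.22, edgeR adjusted p = 0.0806). For mt-Nd5 they were 461, 476, 639 and 629 CPM in MC38, against 277 and 364 CPM in control (0.78, SE 0.18, edgeR adjusted p = 0.0672). All MC38 libraries lay above both controls for mt-Nd4 and mt-Nd5, and likewise for mt-Nd2 (364 to 778 CPM in MC38 and 318 and 344 CPM in control), mt-Nd1 (680.0 to 1138 CPM in MC38 and 640.0 and 581 CPM in control) and mt-Nd6 (251 to 415 CPM in MC38 and 198 and 220.0 CPM in control). Their log2 fold changes were 0.80, 0.60 and 0.68 (SE 0.28, 0.19 and 0.21), with adjusted p of 0.182, 0.155 and 0.133 in edgeR. mt-Nd6 is the only coding gene on the opposite strand (chrM:13552-14070, minus strand) and its end overlaps that of mt-Nd5 (chrM:11742-13565, plus strand). The strand setting of the counting is not given, so whether the counts of mt-Nd6 came from its own strand cannot be told. The groups overlapped for mt-Nd3, at 97.0, 119, 186 and 178 CPM in MC38 and 103 and 154 CPM in control, and its estimate of 0.18 (SE 0.27, edgeR adjusted p = 0.797) turned to -0.09 without control library 1. They also overlapped for mt-Nd4l, at 30.8, 30.2, 33.2 and 41.4 CPM in MC38 and 29.7 and 33.8 CPM in control, and its estimate of 0.09 (SE 0.21, edgeR adjusted p = 0.871) turned to -0.01 without MC38 library 4.

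The 3 mitochondrial genes of complex IV had the smallest estimates after those of mt-Nd3 and mt-Nd4l. The catalytic subunit mt-Co1 stood at 6483, 7011, 8761 and 8167 CPM in MC38, against 6081 and 6017 CPM in control (0.33, SE 0.13, edgeR adjusted p = 0.244). The copper-binding subunit mt-Co2 stood at 2125, 2348, 2927 and 2805 CPM in MC38, against 1979 and 2176 CPM in control, where the lowest MC38 library lay below the higher control (0.30, SE 0.14, edgeR adjusted p = 0.328). For mt-Co3 the levels were 2956, 3242, 4303 and 3989 CPM in MC38, against 2754 and 2670.0 CPM in control (0.42, SE 0.16, edgeR adjusted p = 0.213). Per kilobase of transcript, mt-Atp6 had the highest level of the 13 in both groups, at 7581 CPM per kb in MC38 and 4158 in control. The next was mt-Co1 at 4923 CPM per kb in MC38 and 3915 in control, and the lowest was mt-Nd4l at 114 CPM per kb in MC38 and 107 in control.

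**Figure D3:**
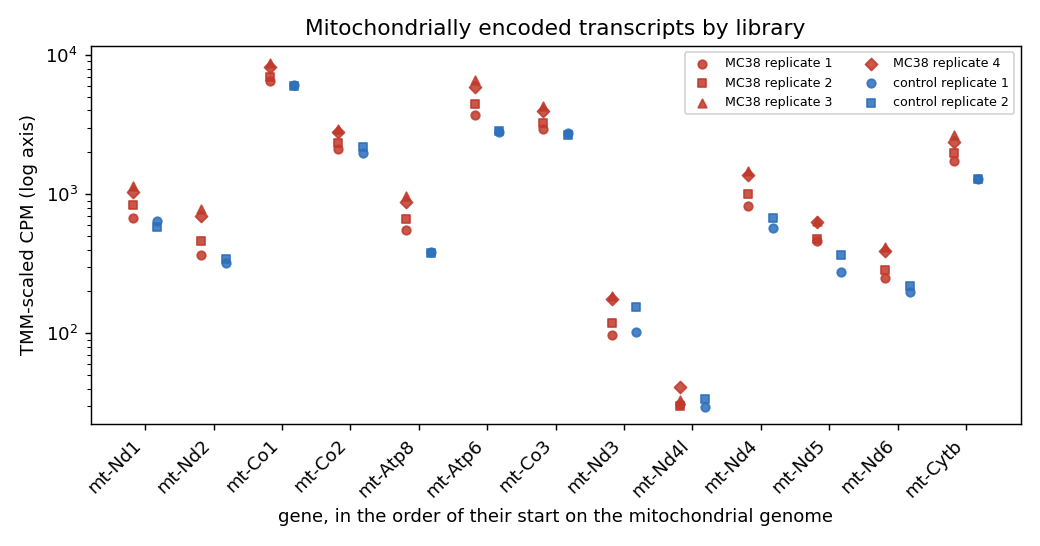
Level of each of the 13 mitochondrially encoded genes in TMM-scaled CPM on a log axis, genes in their order on the mitochondrial genome, 1 symbol per library, MC38 (red) left of control (blue). MC38 library 1 was the lowest of its group for 12 of 13 genes and library 3 the highest for 12 of 13, and mt-Nd3, mt-Nd4l and mt-Co2 are the genes whose groups overlap.

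Ratios within a library do not depend on its scaling. Counts of mt-Atp6 per count of mt-Co1 came to 0.569, 0.635, 0.757 and 0.721 in MC38 libraries, against 0.46 and 0.476 in control libraries, so that the unequal fold changes of the 2 genes were present in each library. Counts of mt-Co2 per count of mt-Co1 were 0.328, 0.335, 0.334 and 0.343 in MC38 and 0.325 and 0.362 in control, with overlap. For the overlapping pair printed above, mt-Atp8 per mt-Atp6 was 0.15, 0.148, 0.146 and 0.148 in MC38 and 0.138 and 0.132 in control. The other printed pair behaved differently, with 26.9, 33.1, 44.2 and 33.2 counts of mt-Nd4 per count of mt-Nd4l in MC38 libraries and 19.2 and 20.1 in control libraries. Both pairs are bicistronic mRNAs in mammals, and how the counting treated reads in their shared bases is not given in the sources used here. Across the 13 genes, the log2 fold change had a Spearman correlation of -0.54 with GC content and of 0.19 with transcript length, over genes that share the same libraries.

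The MC38 libraries took the same order for nearly all of these genes. The median log2 difference from the control mean over the 13 genes was 0.16, 0.46, 0.99 and 0.88 in MC38 libraries 1 to 4, and -0.06 and 0.06 in control libraries 1 and 2. Over the 81 tested nuclear members it was -0.07, -0.15, -0.31 and -0.26 in MC38 and 0.07 and -0.07 in control, where all tested genes stayed between -0.03 and 0.03 in every library. MC38 library 3, highest for 12 of 13 mitochondrially encoded members, was the lowest of its group for 45 of the 81 nuclear members, and MC38 library 1, lowest for 12 of 13, was the highest of its group for 45 of 81. Library 3 also had the lowest summed neutrophil markers of the MC38 group and library 1 the highest. Control library 1 lay above control library 2 for 60 of the 81 nuclear members and for 5 of the 13 mitochondrially encoded ones.

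**Figure D4:**
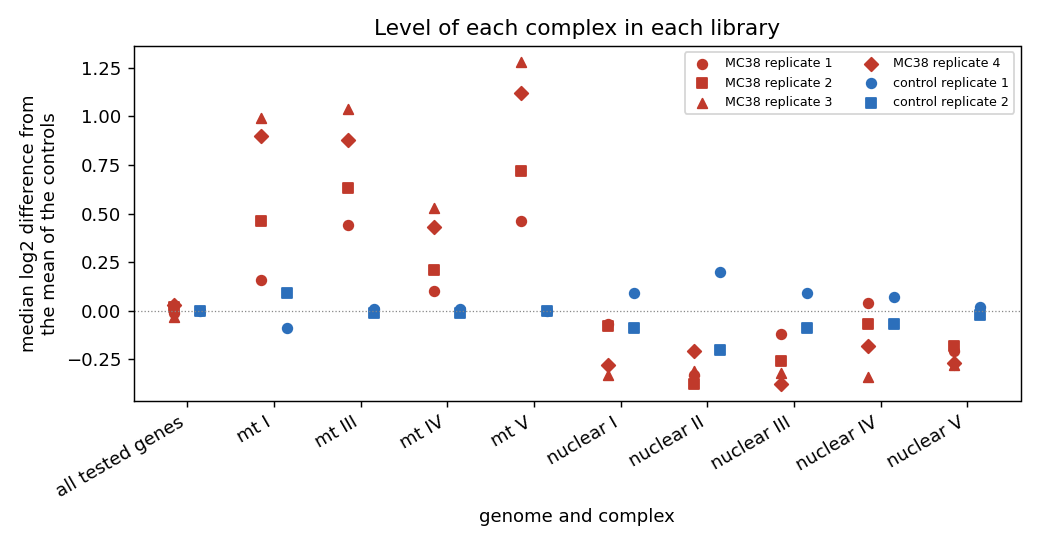
Median log2 difference from the control mean in each library, on log2(CPM + 1), for all tested genes and for the members of each complex by genome, with MC38 libraries (red) left of control libraries (blue) and a symbol for each replicate. MC38 library 3 lies highest in each mitochondrial group (0.53 for complex IV to 1.28 for complex V), and all MC38 libraries lie below both controls for nuclear complexes II, III and V.

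Complex I, the NADH dehydrogenase, held the gene that passed the test. Ndufb5 (ENSMUSG00000027673, chr3:32736990-32751566, plus strand) codes for an accessory subunit of the membrane arm. Its level was 83.9, 91.0, 89.5 and 88.3 CPM in MC38 libraries, against 157 and 125 CPM in control libraries, with a wide gap between groups and a spread among controls larger than that among MC38 libraries. It fell to 88.2 ± 3.05 CPM in MC38, against 141 ± 22.6 CPM in control (SD, n = 4 and 2), which is -0.68 on the log2 scale (SE 0.13, adjusted p = 0.0405 in edgeR). The call rested on narrow margins. Its adjusted p was 0.293 without control library 1, 0.0745 without control library 2, 0.121 without MC38 library 2 and 0.141 without MC38 library 4, and it was 0.0513 with scaling to library totals alone and 0.0529 in limma-voom. Of the 37 tested nuclear genes of complex I, 15 had all MC38 libraries below both controls (40.5%, against 15.0% of all genes). For 1, the membrane arm subunit Ndufa1, all lay above (2.7%, against 14.0% of all genes). Its level was 204 to 214 CPM in MC38 and 178 and 204 CPM in control. The lowest MC38 library and the higher control differ there only past the digits given. The median log2 fold change over the 37 genes was -0.19.

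The 7 nuclear core subunits of complex I, which carry the flavin and the iron-sulphur clusters, had a median of -0.29. Of these, 4 had all MC38 libraries below both controls (57.1%, against 15.0% of all genes) and none passed the test. Ndufv1, which binds NADH and the flavin, stood at 85.3, 72.0, 47.9 and 56.3 CPM in MC38, against 85.8 and 97.6 CPM in control (-0.49 on the log2 scale, SE 0.22, adjusted p = 0.293 in edgeR). The iron-sulphur subunit Ndufs1 had its estimate on the other side, at 64.4, 49.6, 38.8 and 43.6 CPM in MC38 and 38.8 and 42.2 CPM in control (0.28, SE 0.22, edgeR adjusted p = 0.569), with overlap. The largest positive estimate in complex I was that of the accessory subunit Ndufb4, at 72.6, 74.9, 103 and 101 CPM in MC38 and 64.9 and 73.0 CPM in control (0.35, SE 0.19, edgeR adjusted p = 0.376). The 3 genes of highest level per kilobase were Ndufa2 (483 CPM per kb in MC38 and 558 in control), Ndufa1 (497 in MC38 and 456 in control) and Ndufa3 (365 in MC38 and 382 in control), with log2 fold changes of -0.21, 0.13 and -0.07.

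Complex II, succinate dehydrogenase, is the complex with no mitochondrially encoded subunit, and it also takes part in the TCA cycle. None of its 4 genes passed the test, and 3 of them had all MC38 libraries below both controls (75.0%, against 15.0% of all genes). The membrane anchor Sdhd was at 112, 95.9, 117 and 102 CPM in MC38, against 171 and 131 CPM in control (-0.50, SE 0.15, edgeR adjusted p = 0.121). Sdha, the flavoprotein, was at 116, 105, 119 and 136 CPM in MC38, against 155 and 145 CPM in control (-0.33, SE 0.13, edgeR adjusted p = 0.243). Sdhc, the other anchor, was at 97.0 to 99.4 CPM in MC38 and at 138 and 103 CPM in control (-0.30, SE 0.14, edgeR adjusted p = 0.316), and its estimate was -0.07 without control library 1. The iron-sulphur subunit Sdhb overlapped, at 216, 204, 218 and 203 CPM in MC38 and 229 and 172 CPM in control (0.07, SE 0.13, edgeR adjusted p = 0.847), and its estimate was -0.12 without control library 2.

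In complex III no nuclear gene passed the test, and the median log2 fold change was -0.34. Of the 9 genes, 4 had all MC38 libraries below both controls (44.4%, against 15.0% of all genes). The hinge protein Uqcrh, which lies beside cytochrome c1, had the smallest p, with 279, 270.0, 280.0 and 276 CPM in MC38, against 391 and 332 CPM in control (-0.39, SE 0.11, edgeR adjusted p = 0.114). The most negative estimate was that of the core protein Uqcrc1, which was at 249, 231, 255 and 232 CPM in MC38 and 403 and 252 CPM in control, where control library 1 stood apart and the groups overlapped (-0.44, SE 0.17, edgeR adjusted p = 0.225, with an estimate of -0.06 without control library 1). Uqcrq, a small subunit that binds ubiquinone, had 195 to 292 CPM in MC38 and 352 and 316 CPM in control (-0.42, SE 0.16, edgeR adjusted p = 0.227). The catalytic Rieske iron-sulphur protein Uqcrfs1 was at 121, 105, 135 and 147 CPM in MC38, against 154 and 159 CPM in control (-0.30, SE 0.15, edgeR adjusted p = 0.331), and cytochrome c1, Cyc1, was at 118 to 145 CPM in MC38 and 148 and 129 CPM in control (-0.08, SE 0.13). The estimates of the core protein Uqcrc2 (-0.03, SE 0.15) and of Uqcrb (0.16, SE 0.14) were the highest in the complex. Per kilobase, over all 6 libraries, Uqcr11 was highest (582 CPM per kb in MC38 and 735 in control), followed by Uqcr10 (413 in MC38 and 531 in control) and Uqcrb (447 in MC38 and 401 in control).

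In complex IV, cytochrome c oxidase, the nuclear genes ranged from the second most negative to the most positive estimate of all nuclear members, and none passed the test. Cox4i1 (ENSMUSG00000031818, chr8:120668222-120674207, plus strand) codes for the usual form of the regulatory subunit that binds ATP. It was at 666, 617, 545 and 539 CPM in MC38, against 873 and 868 CPM in control. The controls lay within 5 CPM of each other and all MC38 libraries far below them, and the log2 fold change was -0.56 (SE 0.12, edgeR adjusted p = 0.0529). Under the 14 other settings tried it passed in 6. The structural subunit Cox5a was at 228, 212, 237 and 225 CPM in MC38, against 287 and 284 CPM in control (-0.34, SE 0.11, edgeR adjusted p = 0.145). Counts of mt-Co1 per count of Cox4i1, genes of the 2 genomes for 1 complex, came to 9.73, 11.4, 16.1 and 15.2 in MC38 libraries and 6.97 and 6.93 in control libraries. Per kilobase the highest nuclear genes were Cox8a (776 CPM per kb in MC38 and 869 in control), Cox6b1 (552 in MC38 and 631 in control) and Cox6a1 (473 in MC38 and 561 in control), with log2 fold changes of -0.16, -0.19 and -0.25.

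Several subunits of complex IV have a second gene that is used mainly in other tissues. Cox6a2 (ENSMUSG00000030785, chr7:128205435-128206387, minus strand), the form of heart and skeletal muscle, was at 36.7, 34.6, 25.4 and 26.8 CPM in MC38, against 17.8 and 6.93 CPM in control. All MC38 libraries lay above both controls, which differed from each other, and the fold was 2.5 (1.32 on the log2 scale, SE 0.37, adjusted p = 0.113 in edgeR). The log2 estimate was 2.15 without control library 1 and 0.80 without control library 2, and it passed the test in 4 of the 14 other settings. As a share of Cox6a1 and Cox6a2 together, per kilobase, it made up 8.14%, 9.56%, 9.26% and 8.31% in MC38 libraries and 4.28% and 1.86% in control libraries. Cox6b2, known from testis, made up 5.65% to 6.43% of its pair in MC38 and 5.71% and 4.93% in control, with a log2 fold change of 0.00 (SE 0.24). Cox4i2, known from lung and low oxygen, made up 0.300% to 0.537% of its pair in MC38 and 0% and 0.354% in control. The muscle form Cox7a1 had 5 to 11 counts in MC38 libraries and 11 and 7 in control libraries, beside 3666 to 4462 counts of Cox7a2 in MC38 and 3793 and 3501 in control.

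**Figure D5:**
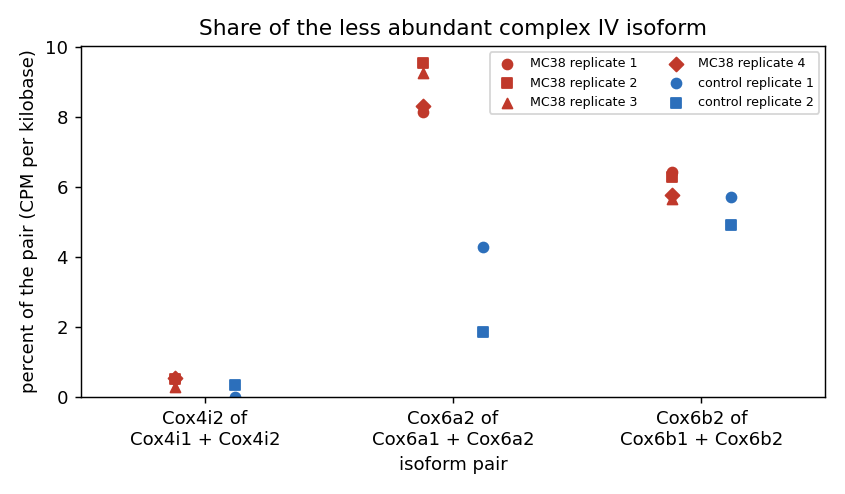
Share of the second isoform, in percent of the summed CPM per kilobase of each pair (Cox6a2 with Cox6a1, Cox6b2 with Cox6b1, Cox4i2 with Cox4i1), 1 point per library, MC38 left of control. Cox6a2 lies at 8.14% to 9.56% in MC38 libraries and at 4.28% and 1.86% in control libraries, while the groups of the other 2 pairs overlap.

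Of the 5 members too low to test, Cox8b had no count in any of the 6 libraries. Ndufa4l2, a low-oxygen relative of Ndufa4, had 3 counts in control library 2 alone, and Cox8c had 4 in control library 1 alone. Cox7b2 had 6 counts in MC38 library 4 and 21 and 6 in the control libraries. Atp5g2 was listed at 0 in every library while the other genes for the same c subunit were well counted. Atp5g1 was at 338 to 458 CPM in MC38 and 442 and 400.0 CPM in control, and Atp5g3 at 151 to 180.0 CPM in MC38 and 180.0 and 192 CPM in control. Ndufa4, listed with complex I by its name and now known to belong to complex IV, was at 394, 381, 377 and 416 CPM in MC38, against 496 and 441 CPM in control (-0.26, SE 0.11, edgeR adjusted p = 0.26).

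In ATP synthase no nuclear gene passed the test, and the genes of its catalytic F1 head lay on 1 side. For all 5 of them every MC38 library lay below both controls, which held for 15.0% of all genes. Their median log2 fold change was -0.30, with adjusted p from 0.067 to 0.416 in edgeR. Atp5a1, the alpha subunit, was at 361, 342, 316 and 309 CPM in MC38, against 484 and 447 CPM in control (-0.49, SE 0.11, edgeR adjusted p = 0.067). Atp5b, the catalytic beta subunit, was at 471, 467, 470.0 and 459 CPM in MC38, against 559 and 540.0 CPM in control (-0.23, SE 0.10, edgeR adjusted p = 0.259). Atp5c1, Atp5d and Atp5e, the subunits of the central stalk, had log2 fold changes of -0.30, -0.27 and -0.38 (SE 0.11, 0.16 and 0.15). Counts of mt-Atp6 per count of Atp5a1 were 10.2, 13, 21 and 19 in MC38 libraries and 5.78 and 6.42 in control libraries.

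The peripheral stalk, which holds the head still, was mixed. Atp5f1, Atp5h and Atp5o had all MC38 libraries below both controls, with log2 fold changes of -0.30, -0.21 and -0.36. Atp5j, coupling factor 6, had all above, at 527, 496, 488 and 499 CPM in MC38 and 416 and 406 CPM in control (0.29, SE 0.10, edgeR adjusted p = 0.189). Over all tested genes, 15.0% lay below both controls throughout and 14.0% above. The c-ring genes Atp5g1 and Atp5g3 had estimates of -0.07 and -0.16. The membrane subunits Atp5k, Atp5l, Atp5j2 and Atp5mpl had estimates from -0.27 to -0.04, and 1 of these 4 lay below both controls throughout. Atp5k had the highest level per kilobase of the nuclear ATP synthase genes (353 CPM per kb in MC38 and 403 in control), ahead of Atp5h (263 in MC38 and 305 in control) and Atp5e (172 in MC38 and 225 in control). Atp5s, a coupling factor that is not part of the core enzyme, had 20.3 to 35.3 CPM in MC38 and 28.1 and 20.5 CPM in control (0.17, SE 0.30).

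None of 7 further lists, chosen around mitochondrial function but not confined to mitochondrial proteins, had a member past the test. The mitochondrial ribosome, which translates the 13 mRNAs, had estimates below 0 for 61 of 77 tested genes and a median of -0.24. All MC38 libraries lay below both controls for 23 of the 77 (29.9%, against 15.0% of all genes) and above both for 0. At an unadjusted p under 0.05 in edgeR there were 17, all lower, where 8.22% of all genes were lower. The ribosomal gene of smallest p, Mrps28, was at 70.4, 82.8, 79.9 and 79.8 CPM in MC38, against 134 and 106 CPM in control (-0.62, edgeR adjusted p = 0.0672). The 19 genes of mitochondrial transcription and replication had a median of 0.12. Of these, 5 lay above both controls throughout (26.3%, against 14.0% of all genes) and 0 below (against 15.0%). Mterf1a, of the family of mitochondrial termination factors, had the smallest p in the list. It was at 35.5, 29.5, 21.3 and 19.1 CPM in MC38 and 12.5 and 15 CPM in control (0.93, edgeR adjusted p = 0.164). The 47 assembly factors had a median of -0.16, with 8 below both controls throughout (17.0%, against 15.0% of all genes) and 4 above (8.51%, against 14.0%). Among them Cox15, which makes the haem a of complex IV, was at 34.9, 28.4, 27.5 and 33.2 CPM in MC38 and 15.4 and 16.6 CPM in control (0.96, SE 0.22, edgeR adjusted p = 0.067).

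The 17 tested nuclear regulators of mitochondrial genes had a median of 0.17, with 3 above both controls throughout (17.6%, against 14.0% of all genes) and 1 below (5.88%, against 15.0%). Ppargc1a, a coactivator known to raise mitochondrial gene expression, had 82, 64, 102 and 42 counts in MC38 libraries and 13 and 9 in control libraries. That is 5.51, 4.38, 5.68 and 3.11 CPM in MC38 and 1.09 and 0.743 CPM in control, with no overlap at a low level, and the log2 fold change was 2.34 (SE 0.65, edgeR adjusted p = 0.109). Of the 15 tested electron carriers and transporters, 7 lay below both controls throughout (46.7%, against 15.0% of all genes) and 3 above (20.0%, against 14.0%), with a median of -0.14. The outer membrane channel Vdac1 was at 83.7, 98.2, 107 and 113 CPM in MC38 and 129 and 168 CPM in control (-0.56, edgeR adjusted p = 0.117).

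The 27 TCA cycle genes had a median of -0.05 and a mean of 0.20, which differ in sign. The mean takes in Pdk4, named after its values were seen, with 27, 15, 1 and 32 counts in MC38 libraries and 0 in both controls. Mdh2, the mitochondrial malate dehydrogenase, was at 291, 326, 328 and 292 CPM in MC38 and 475 and 403 CPM in control (-0.51, edgeR adjusted p = 0.0672). The 12 antioxidant enzymes had the lowest median of these lists, -0.38. For 6 of the 12 every MC38 library lay below both controls, which held for 15.0% of all genes. Another count, at an unadjusted p under 0.05 in edgeR, was 7 of the 12, all lower, where 8.22% of all genes were lower. Sod1, the cytosolic superoxide dismutase, was at 447, 405, 351 and 394 CPM in MC38 and 577 and 575 CPM in control (-0.53, SE 0.12, edgeR adjusted p = 0.0614).

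Length and base composition were looked at because the nuclear members are short. Their median transcript length was 875 bases and the median GC content 51.3%, against 3064 bases and 50.1% over the 13226 protein-coding genes tested. The log2 fold change of the 81 nuclear members had a Spearman correlation of -0.11 with length and -0.19 with GC content across genes, which are not independent replicates and share the same libraries. Over all 13226 genes these were 0.09 and -0.12. The 6018 nuclear genes outside the members but within most of their range of lengths had a median log2 fold change of -0.04, against -0.21 for the nuclear members, but their median length of 1890 bases was well above that of the members.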

How the data were processed

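Read counts per Ensembl gene were deposited by the authors as whole numbers for 7 libraries. The submitters' processing notes list HTSeq 0.10.0, STAR 2.6.1 and Trim Galore 0.5.0, with mm10 as the build. Strand setting, annotation release and filters: not given in the sources used here. Near-identical nuclear copies may split or lose reads. The labels' protocols name no molecular identifiers, so PCR copies count as reads.

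Counts of 4 MC38 and 2 control libraries were fitted in edgeR 4.0.16 (R 4.3.3) with TMM, filterByExpr, the robust two-sided quasi-likelihood test and Benjamini-Hochberg adjustment over 14226 genes (threshold 0.05, common biological coefficient of variation 0.366). Symbols, coordinates and lengths came from GENCODE release 21, which named 27797 IDs. CPM are TMM-scaled, and CPM per kb uses the union of exons. Library medians used log2(CPM + 1). Scripts were tested on simulated counts. Members, lists and the leaving out of control column 3 were chosen with earlier results of these data known. The genes named were all mitochondrially encoded members, every member past the threshold, and by complex the 3 of highest level per kb and the 2 largest and 2 smallest fold changes, plus core subunits, isoforms and the member of smallest p in each other list. For 1 gene so chosen no result is reported. Alternatives used DESeq2 1.42.0 and limma 3.58.1, other scalings, no filter, all 7 columns and libraries left out in turn.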

Additional observations from a re-analysis of the deposited data

How the results depend on the processing

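The direction of the median log2 fold change of nuclear members (-0.26 to -0.11) and of mitochondrially encoded members (0.31 to 0.80) was kept under all alternatives tried, and so was the difference in mitochondrial share (0.856 percentage points, 0.67 to 1.05 with a library left out). No paired sampling is stated. Deviations from the group means correlated between same-numbered libraries at r = 0.073 for number 1 and -0.052 for number 2. The deviations of 2 controls mirror each other, so these values cannot decide whether libraries were paired. Under the replicate block, where MC38 libraries 3 and 4 have no partner and 1 residual degree of freedom remains, the mitochondrial median was 0.31 and the nuclear medians of complexes I to V were -0.11, -0.36, -0.22, -0.01 and -0.20, against -0.19, -0.32, -0.34, -0.16 and -0.25 without the block.

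Counts of calls moved most, and those with all 7 columns count the dependent control column 3 as a replicate. Members called were 1, against 0 with library totals alone, 7 with no filter, 16 in DESeq2, 20 with all 7 columns, 9 under the block and 0 to 11 with a library left out. Mitochondrially encoded calls were 0, against 3 with no filter, 8 in DESeq2, 7 with all 7 columns, 5 under the block and 0 to 8 with a library left out. Nuclear calls were 1, against 0, 4, 8, 13, 4 and 0 to 3 in the order given for all members. Over all genes, 229 calls became 504 with no filter, 1027 in DESeq2, 1454 with all 7 columns, 459 under the block and 60 to 442 with a library left out. With a library left out the nuclear medians ran from -0.26 to -0.10 for complex I, -0.43 to -0.18 for II, -0.39 to -0.24 for III, -0.24 to -0.09 for IV and -0.25 to -0.20 for V.

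The other lists had 0 calls, where 1.61% of all genes were called. Over all genes the share called was 2.35% with no filter, 4.78% in DESeq2, 10.6% with all 7 columns and 3.23% under the block. The no-filter and DESeq2 shares are over 21477 genes with any count, including low-count genes left out of the main fit. With no filter the ribosome had 1, TCA 1 and antioxidant list 2. DESeq2 gave assembly 1, ribosome 4, regulators 1, carriers 1, TCA 2 and antioxidant 5. All 7 columns gave 2, 9, 1, 5, 4 and 5 in that order and transcription 1. The block gave transcription 1, carriers 3, TCA 1 and antioxidant 2, which also had 0 to 3 with a library left out.

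Estimates near 0 changed sign. With a library left out, Sdhb ran from -0.12 to 0.29, Atp5s from -0.04 to 0.42, Cyc1 from -0.17 to 0.02, mt-Nd3 from -0.09 to 0.50, mt-Nd4l from -0.01 to 0.19, Uqcrc2 from -0.21 to 0.19, Ndufa3 from -0.19 to 0.07 and Cox6b2 from -0.21 to 0.26. Cox4i2 ran from -0.14 to 7.38, where 7.38 was fitted against a lone control at 0 and no measure of size. Uqcrc2 was 0.01 with library totals alone and Cox6b2 -0.01 in limma-voom. Under the block Uqcrb was -0.0033, Atp5k 0.05, Ndufa3 0.14, Atp5s -0.21, mt-Nd3 -0.23 and mt-Nd4l -0.06. The cause was not tested. With 2 controls the spread of that group is known poorly, and the few counts of Cox7a1 and Cox4i2 leave SEs of 1.14 and 1.38 on the log2 scale.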
